A study of Lathyrus oleraceus with 4 samples.

Results

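Reactive oxygen homeostasis was followed with 5 probes of the pea array: AJ319808 (thioredoxin H), AB189165 and AB087845 (listed together as copper-zinc superoxide dismutase), AB087838 (peroxidase) and AB026253 (copper amine oxidase). They are 5 of the 2234 probes of the array and 5 of the 553 whose names are GenBank accessions. All 5 were found on each of the 4 arrays. They were picked because the study lists their transcripts as lower in the shoot apical meristem (SAM) on these same arrays, so their SAM/NM ratios are given as a description, without a test. The chip carries short oligonucleotides and is split into sectors that are hybridized apart, each used as 1 array. Each array held both tissues of an independent collection from 10-day-old garden pea, cultivar Torsdag, grown in a greenhouse. One dye channel carried RNA of many pooled SAMs, dissected free of leaf primordia. The other carried RNA of non-meristem parts (NM), which were primary stem, primary root and mature leaf, so a ratio does not tell which organ gave the NM signal. SAM RNA was in Cy3 and NM RNA in Cy5 on sectors 1 and 3 of the chip, and the reverse on sectors 2 and 4. No treatment is named, and all tissue came from the same cultivar.

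Reactive oxygen species are by-products of respiration and photosynthesis and also serve as signals. Superoxide dismutases turn superoxide into hydrogen peroxide and oxygen, and copper-zinc forms occur in the cytosol and in chloroplasts of plants. Peroxidases spend hydrogen peroxide on the oxidation of other substrates, and thioredoxins reduce disulphide bonds in target proteins, peroxiredoxins among them. Copper amine oxidases work the other way and release hydrogen peroxide while oxidising amines such as putrescine. The apoplast of legume seedlings is a classic source of this enzyme.

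The probes of an array had a median intensity between 170.2 and 792 per array and channel, and the 6 blank spots one between 43.8 and 157. Every probe was brighter than all blanks measured beside it. Values above 0 on the log2 scale mean more signal from the SAM after a robust spline was used to normalize each array. The tables number the channels without naming dyes, and the first was read as Cy5. The sample labels list Cy3 as the first channel, which goes against that reading if the tables keep the labels' order. Under the Cy5 reading all 130 accession-named probes of the study's lists of changed transcripts, these 5 included, have the listed direction, and 0 of 130 under the other. Probes of the subtracted library, made to enrich SAM transcripts, had a median log2 ratio of 0.10. With the channels in the reverse order every sign here would turn. The tissues are described with probes that the study also lists as changed on these arrays. The signs of these probes follow from that listing, so they test nothing. The 4 probes of photosynthetic tissue (Lhcb3, rubisco activase, the oxygen-evolving enhancer protein 3 and CP47) lay between -2.90 and -1.35. The 4 probes of dividing cells (proliferating cell nuclear antigen on a pair of probes, cyclin D and MCM7) lay between 0.77 and 2.00. Probes of photosynthetic tissue differed between the channels as well, and the part of that tissue in the ratios of the redox probes was not tested. In bulk tissue, fewer cells that express a gene and less RNA per cell cannot be told apart.

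All 5 probes gave less normalized signal with SAM than with NM RNA, on all 4 arrays. Thioredoxin H stood at a ratio of 0.278 (SAM over NM), the superoxide dismutase probe AB189165 at 0.374, the peroxidase at 0.484, the copper amine oxidase at 0.511 and AB087845 at 0.611. With the call used for every probe (adjusted p under 0.05 in limma and a ratio below 0.7), 5 of 5 were called lower, where 7.34% of all 2234 probes and 18.6% of the 553 accession-named probes were; 9.76% of all probes were called higher, and 0 of the 5. Values below 0 on all 4 arrays were found for 16.8% of all probes. Without normalization within arrays, only thioredoxin H was called, with 1.39% of all probes called lower. AB087845 was the member not called with arrays centred on their median (6.09% of all probes called lower) or with the curve through accession-named probes (4.79%). Since the members were chosen on this contrast, nothing is read from these counts. Their median log2 ratio was -1.05, against -0.004 for all probes and -0.09 for the accession-named ones, a gap that follows from the same choice.

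**Figure D1:**
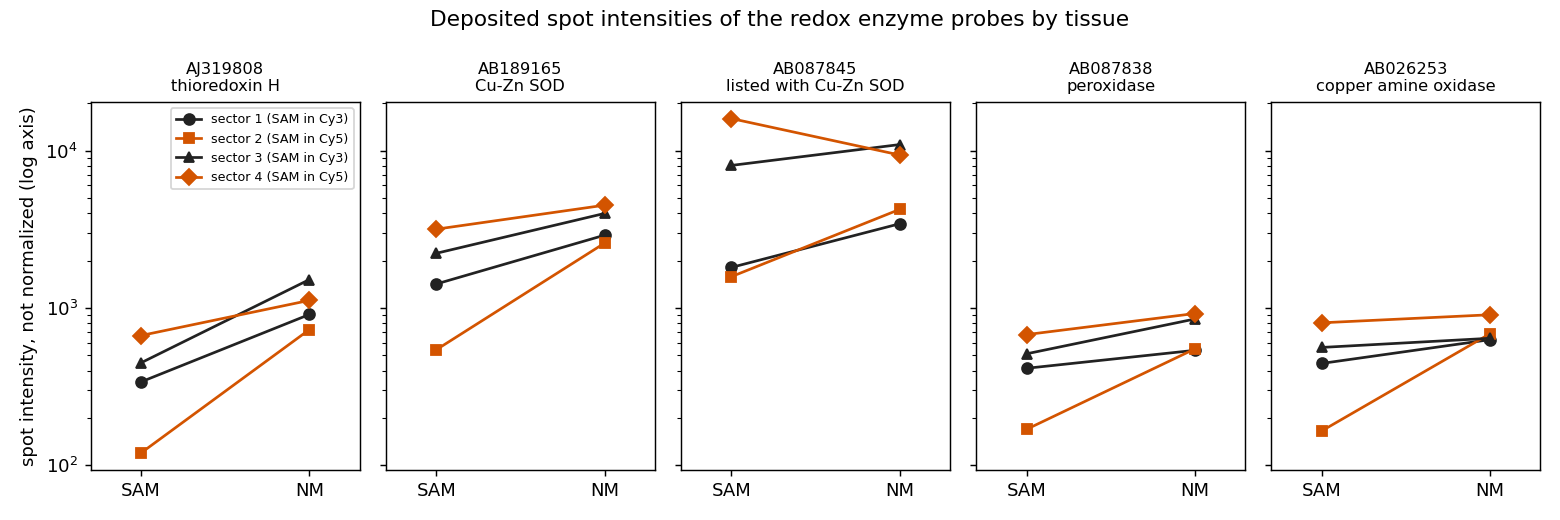
Deposited spot intensities (log axis, not normalized) of the 5 probes in SAM and NM RNA, with a line joining the tissues of each of the 4 arrays. The NM value is the higher one in 19 of the 20 pairs, the exception being AB087845 on sector 4. These intensities include differences between whole channels. On sector 2 the normalization raised the log2 SAM/NM ratio of thioredoxin H by 1.18, of the peroxidase by 1.16 and of the amine oxidase by 1.11. Such pairs were not counted over all probes, and the members were chosen as lower, so nothing is read from the count.

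The superoxide dismutase probe AB189165 had intensities of 1420 in SAM and 2899 in NM RNA on sector 1, and of 543 and 2582 on sector 2. On sector 3 they were 2224 and 3986, and on sector 4 they were 3166 and 4496. NM was the brighter tissue on each array, by between 1.42 and 4.76 times before normalization. On sector 4 the log2 ratio was -0.51 before normalization and -1.96 after it, so most of that value came from the normalization. After normalization the log2 SAM/NM ratios were -0.82, -1.67, -1.22 and -1.96 on sectors 1 to 4. Their mean was -1.42 ± 0.51 (SD, n = 4 arrays, standard error 0.18 from limma), or 2.67 times more NM than SAM signal. The spread of this probe was the widest of the 5, and 94.2% of all probes had an SD no larger than its own.

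The second dismutase probe, AB087845, lay at the bright end of the array, where only 8 probes, itself included, had at least its mean signal. SAM and NM intensities were 1809 and 3428 on sector 1, 1581 and 4230 on sector 2, and 8044 and 10916 on sector 3. On sector 4 the order turned, with 15965 in SAM and 9370 in NM RNA. Before normalization that array gave a log2 ratio of 0.77 and afterwards one of -0.93, so the sign on sector 4 came from the normalization. The normalized values were -0.61, -1.03 and -0.28 on the other sectors, in order. The mean was -0.71 ± 0.34 (SD, n = 4 arrays, standard error 0.13), the smallest difference of the 5. Its direction also depends on the curve: with the spline drawn through the accession-named probes alone the mean was 0.21 (standard error 0.19). At this brightness that curve rests on few probes. Only 4 accession-named ones, AB087845 included, had at least its mean signal. Of the 553 accession-named probes, 103 were called lower and 29 higher in the main fit, so a curve through them is not centred on unchanged probes alone.

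Both dismutase probes are listed together by the study with a single value, but on the arrays they were apart. AB087845 exceeded AB189165 on the log2 scale by 0.21, 0.65, 0.94 and 1.04 on sectors 1 to 4. The mean difference was 0.71 ± 0.37 (SD, n = 4 arrays), with the same sign in 4 of 4 arrays. Both probes were chosen on these ratios, so the difference is not tested. The probe sequences were not used here, and whether the pair measures the same transcript cannot be told.

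The peroxidase probe AB087838 gave 414 in SAM and 538 in NM RNA on sector 1, and 170 and 550 on sector 2. Sector 3 gave 512 and 851, and sector 4 gave 678 and 922. NM signal was higher throughout before normalization, by between 1.3 and 3.24 times. The log2 ratios were then -0.38, -1.70, -0.73 and -0.44 on sectors 1 to 4. On sectors 1 and 4 the normalization lowered them by 0.54 and 0.84, so most of those normalized values came from it. On sector 2 it raised the ratio by 1.16, from the lowest of the 4 to the highest. The normalized log2 ratios ran from -0.54 on sector 2 to -1.46 on sector 3, with -0.91 on sector 1 and -1.28 on sector 4. The mean was -1.05 ± 0.41 (SD, n = 4 arrays, standard error 0.15), a ratio of 0.484.

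Thioredoxin H, AJ319808, had 339 in SAM and 909 in NM RNA on sector 1, and 120 and 729 on sector 2. The intensities were 449 and 1515 on sector 3, and 669 and 1118 on sector 4. It is the probe whose NM signal exceeded its SAM signal most, by between 1.67 and 6.08 times before normalization. The normalization moved its log2 ratio from -2.60 to -1.43 on sector 2 and from -0.74 to -1.62 on sector 4. The normalized log2 ratios were -1.87, -1.43, -2.47 and -1.62 on sectors 1 to 4, with a mean of -1.85 ± 0.45 (SD, n = 4 arrays, standard error 0.17). That mean corresponds to 3.59 times more NM signal, and to between 2.69 and 5.52 times on single arrays. Only 29 of the 2234 probes had a lower mean ratio. SAM intensities were between 2.26 and 5.13 times the brightest blank of the array and channel, the NM intensities between 9.11 and 20.1 times. With the median blank subtracted from each channel, the mean log2 ratio was -2.17.

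The copper amine oxidase probe AB026253, whose enzyme releases hydrogen peroxide from amines, had 444 in SAM and 629 in NM RNA on sector 1, and 166 and 686 on sector 2. It gave 562 and 642 on sector 3, and 805 and 906 on sector 4. The unnormalized NM excess varied from 1.12 to 4.15 times between arrays, yet the normalized log2 ratios were nearly equal, at -0.97, -0.94, -0.92 and -1.04. Before normalization the log2 ratios on sectors 3 and 4 were -0.19 and -0.17, so most of those values came from the normalization. On sector 3 the SAM intensity was 6.42 times the brightest blank and the NM intensity 6.39 times. The mean of the normalized values was -0.97 ± 0.06 (SD, n = 4 arrays, standard error 0.08), or 1.96 times more NM signal. Its SD was among the smallest on the chip, since only 2.6% of all probes had one as small or smaller, while the other 4 lay between the 81.4th and the 94.2nd percentile of SDs. The standard error from limma is larger than this SD alone would give, because limma draws each probe's variance towards that of all probes.

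**Figure D2:**
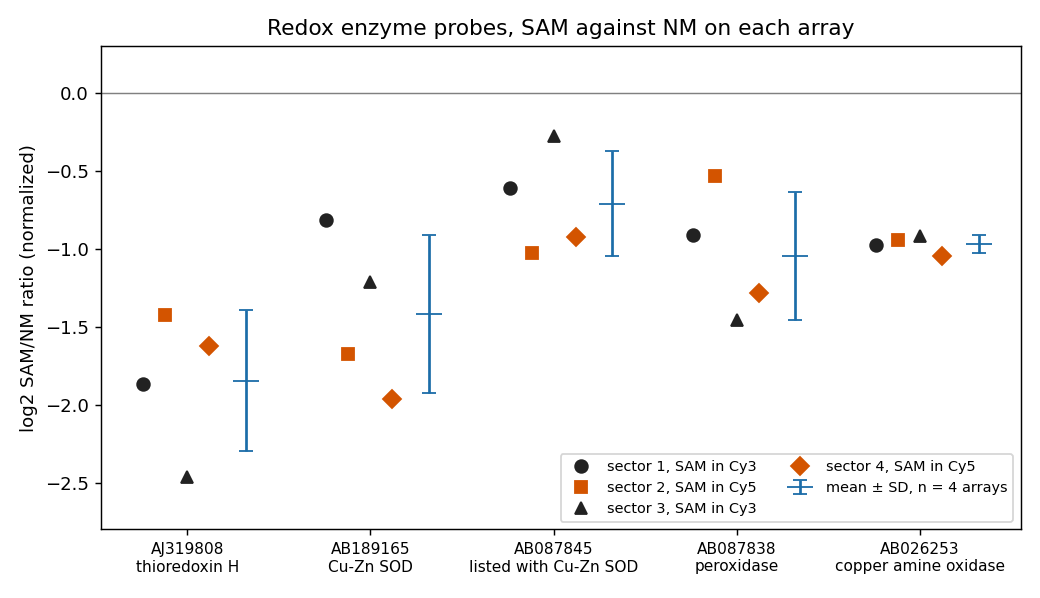
Normalized log2 SAM/NM ratio of the 5 probes on sectors 1 to 4 (black, SAM in Cy3; orange, SAM in Cy5), with the mean and SD over 4 arrays in blue. All 20 values lie below 0, those of copper amine oxidase between -1.04 and -0.92 and those of AB087845 as high as -0.28.

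By their mean ratios the probes ordered as thioredoxin H, AB189165, peroxidase, copper amine oxidase and AB087845, from lowest to highest. The order was not kept by the single arrays. Thioredoxin H was the lowest of the 5 on sectors 1 and 3 and AB189165 on sectors 2 and 4. Thioredoxin H lay below AB189165 by 0.43 ± 0.84 (SD of the within-array difference, log2, n = 4), on 2 of 4 arrays. AB189165 lay below the peroxidase by 0.37 ± 0.65, again on 2 of 4. The peroxidase and the copper amine oxidase differed by 0.08 ± 0.41, on 2 of 4 arrays in that order. The amine oxidase lay below AB087845 by 0.26 ± 0.31, on 3 of 4 arrays. Each of these neighbouring means therefore differed by less than the SD of the difference.

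**Figure D3:**
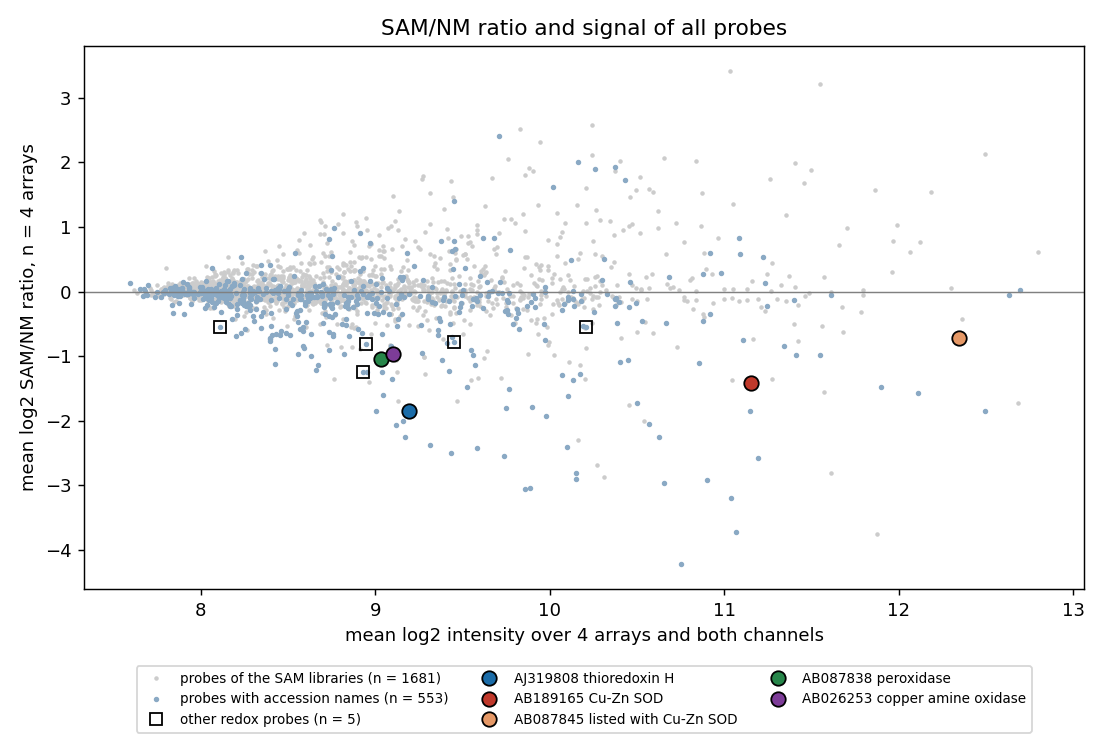
Mean log2 SAM/NM ratio (n = 4 arrays) against mean log2 intensity over both channels for all 2234 probes, with the 5 probes as filled circles and 5 other redox probes as open squares. Copper amine oxidase, peroxidase and thioredoxin H sit at similar signal and at -0.97, -1.05 and -1.85, and both dismutase probes lie further right.

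By signal, all probes were ranked into 4 classes of equal size. Of the 5 probes, 3 fell in the third class and both dismutase probes in the brightest. Probes called lower made up 8.78% of the third class and 15.6% of the brightest, against 0.179% of the dimmest. None of the 5 probes lay within 3 columns and rows of another on the chip. The part of chip position in their ratios was not tested. Within 3 columns and rows of each of the 5 probes, the surrounding 34 to 48 probes had median log2 ratios between -0.10 and 0.05. None of the 48 spots around thioredoxin H and none of the 34 around AB189165 was as low as the probe itself. The other 3 members each had between 1 and 3 such neighbours. The members were chosen for low ratios, so nothing is read from these neighbour counts.

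The dye orientation set the sign of each ratio by which the members were chosen. The spread that dye adds also entered the fit by which transcripts were listed as changed. Dye effects of the members are therefore given as a description, without a test. Thioredoxin H had a mean log2 ratio of -2.17 with SAM in Cy3 and -1.52 with SAM in Cy5. The dismutase probes went the other way, with -1.02 and -1.82 for AB189165 and -0.45 and -0.98 for AB087845. The peroxidase gave -1.19 and -0.91, and the copper amine oxidase -0.95 and -0.99. All 5 were below 0 in both orientations, since they were below 0 on all 4 arrays, as were 16.8% of all probes. The members were chosen as lower on these arrays, so nothing is read from this count. In a limma model with a dye term beside the tissue, the log2 effect of the first over the second channel was 0.32 (standard error 0.11) for thioredoxin H, -0.40 (0.10) for AB189165 and -0.27 (0.08) for AB087845. It was 0.14 (0.15) for the peroxidase and -0.02 (0.07) for the amine oxidase. The signs of these dye effects depend on the normalization: with arrays only centred on their median, those of AB189165, AB087845 and the amine oxidase were above 0, and without normalization those of thioredoxin H and the peroxidase were below and that of AB087845 above 0.

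**Figure D4:**
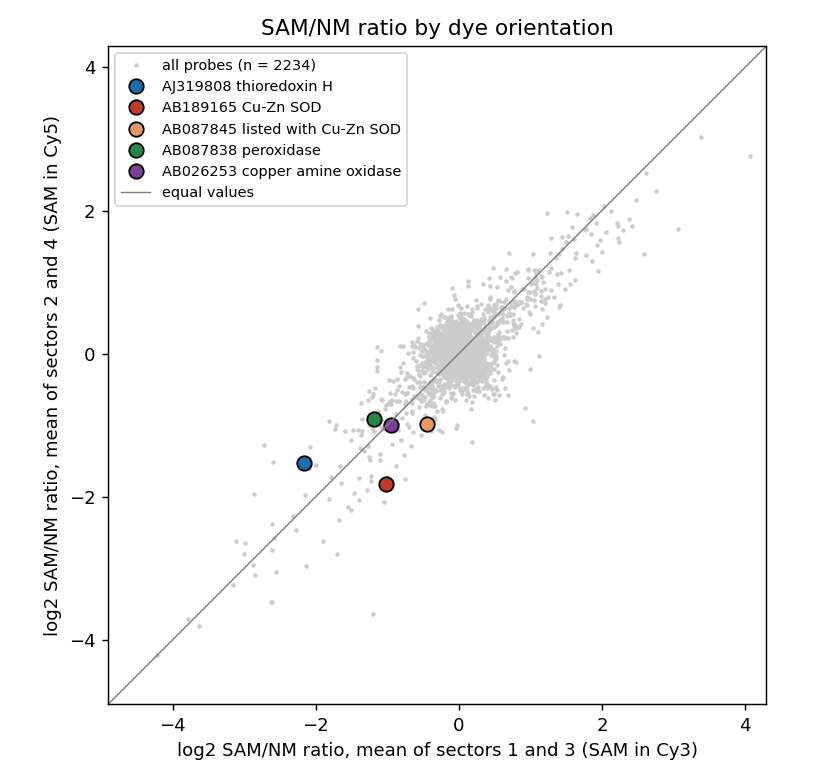
Mean log2 SAM/NM ratio of sectors 1 and 3 (SAM in Cy3, x axis) against that of sectors 2 and 4 (SAM in Cy5, y axis) for all 2234 probes in grey and the 5 probes in colour, with a line of equal values. Copper amine oxidase (-0.95 and -0.99) sits on the line, thioredoxin H (-2.17 and -1.52) above it and both dismutase probes below it.

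Other redox probes were 5 further accession-named ones, all from the study's list of lower transcripts, so their values too are a description. Germin-like proteins are cell wall glycoproteins, some of which have superoxide dismutase activity, and 3 of these 5 probes measured them. Probes that the study did not list as changed carry no gene names here, so any unchanged germin-like probe would be missed. AJ250832 (germin-like protein 1) had log2 ratios of -1.21, -0.84, -1.62 and -1.31 on sectors 1 to 4, with a mean of -1.24 ± 0.32 (SD, n = 4). AJ311624 (germin-like protein 3) had a mean of -0.81 ± 0.39 and AJ250833 (germin-like protein 2a) one of -0.56 ± 0.37. AY662655, monodehydroascorbate reductase, which regenerates ascorbate, had -0.78 ± 0.37 (SD, n = 4). AB087837, a glutathione S-transferase, an enzyme class that joins glutathione to other compounds, had the smallest difference, -0.54 ± 0.11. All 5 were below 0 on each array, as were 16.8% of all probes, and called lower, as were 7.34% of all and 18.6% of accession-named probes; their median was -0.78. Since the list holds only transcripts listed as lower, nothing is read from these counts. Without sector 4 the number called lower was 3 of 5 (5.91% of all probes). It was also 3 of 5 with median centring (6.09% of all probes called lower) or the curve through accession-named probes (4.79%). Without normalization it was 0 of 5 (1.39%). It was 4 of 5 without sector 2 (7.74%), with the deposited log2 ratios (7.25%) and with a global loess and scaling between arrays (7.25%). Catalase, which the study names beside these enzymes under a library accession, was not analysed here.

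The probes nearest to each member were sought among 125 other accession-named probes of the study's lists, by the Euclidean distance of the log2 ratios over the 4 arrays. The copper amine oxidase was closest to AF369889 (embryo-abundant protein), at a distance of 0.11, and to AJ548795 (a plasma membrane intrinsic protein) at 0.25. For AF369889 the array values ran from -1.03 on sector 4 to -0.91 on sector 2. The peroxidase was closest to AF057182 (ferredoxin-NADP+ reductase, of the photosynthetic electron chain) at 0.21 and to Z72489 (CP12, a chloroplast protein that regulates Calvin cycle enzymes) at 0.24. Thioredoxin H had no such close match, with AY065654 (ultraviolet-B-repressible protein) at 0.56 and AF139018 (disease resistance response protein) at 0.73. AB189165 lay 0.46 from U69554 (6a-hydroxymaackiain methyltransferase) and 0.48 from AF107404 (sophorol reductase), both enzymes of isoflavonoid metabolism in pea. AB087845 lay 0.26 from AB059568 (UDP-glucuronate carboxy-lyase) and 0.33 from AF153061 (MAP kinase 3). The distance between both dismutase probes was 1.55, and the pairs of members ranged from 0.72 to 2.65. With only 4 arrays and candidates that were all listed as changed, these distances describe the ratios and nothing else.

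**Figure D5:**
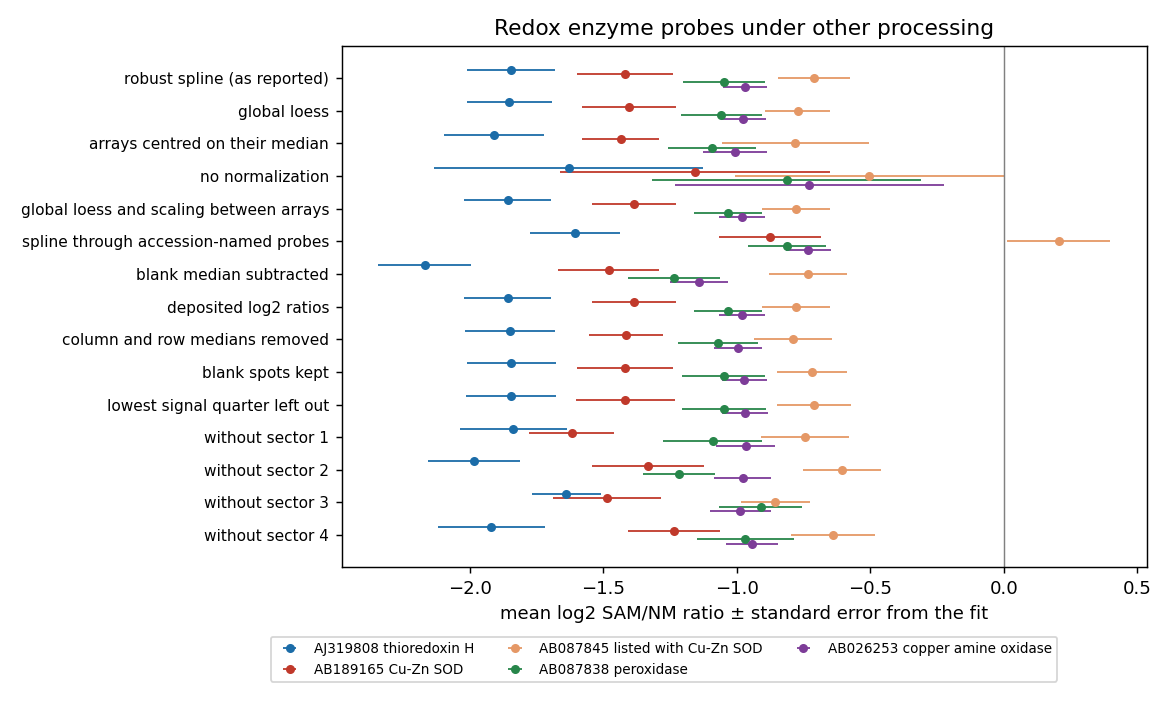
Mean log2 SAM/NM ratio of the 5 probes with the standard error from limma, under the reported processing (top), 10 other settings and with each array left out. The dots stay below 0 in all of them except AB087845 with the spline through accession-named probes (0.21), and without normalization the standard errors are the widest.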

How the data were processed

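The authors scanned the CombiMatrix arrays and deposited an intensity for each spot in both channels, neither normalized nor accompanied by a background value. They also deposited log2 ratios of the first over the second channel, which a global loess and scaling between arrays gave to within 3.2e-08 when all 2240 spots, blanks included, were kept. The medians of these columns lay between -0.005 and 0.007, and they served as an alternative. The 6 blank spots were left out, and each array was normalized by limma's robust spline. Signs were set by the dyes, and lmFit and eBayes were run with Benjamini-Hochberg adjustment over 2234 probes (limma 3.58.1, R 4.3.3). Figures used matplotlib 3.10.9 under Python 3.11.15. The array whose label has no number was taken as sector 1 from its dyes. Both tissues of a collection share an array, so the ratio already is the pairing.

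The members, lists and tests were chosen with earlier results of these data known. Named are the 5 members, the redox list, the markers and the 2 nearest annotated probes of each member. The number of arrays, 4, limits the precision.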

Additional observations from a re-analysis of the deposited data

How the results depend on the processing

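Under the other settings with the same channel order, the 5 members kept their direction, with the exception of AB087845. With the spline through accession-named probes, AB087845 had a log2 SAM/NM ratio of 0.21, AB189165 -0.88 and the amine oxidase -0.73, and 408 probes were called higher and 107 lower, against 218 and 164. The median of all probes rose by 0.13 under it. Without normalization the amine oxidase had -0.73, 49 probes were called higher and 31 lower, 1 of 5 members was called, and the median of all probes rose by 0.27. With arrays centred on their median, 128 probes were called higher and 136 lower, and 4 of 5 members were called lower. With the blank median subtracted the amine oxidase had -1.14. The cause of these shifts was not tested. With the first channel read as Cy3 every sign turns by construction: thioredoxin H had 1.85, AB189165 1.42, the peroxidase 1.05, the amine oxidase 0.97 and AB087845 0.71, and the dismutase difference was -0.71. The other redox probes then had 0.54 (AB087837), 1.24 (AJ250832), 0.56 (AJ250833), 0.81 (AJ311624) and 0.78 (AY662655).

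Dye effects above or below 0 by setting were 0.21 (AB189165), 0.61 (AB087845) and 0.054 (amine oxidase) with median centring, and -0.041 (thioredoxin H), 0.18 (AB087845) and -0.26 (peroxidase) without normalization.

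With each array left out, the mean log2 ratio lay between -1.99 and -1.64 for thioredoxin H, -1.62 and -1.24 for AB189165, -0.86 and -0.61 for AB087845, -1.22 and -0.91 for the peroxidase, and -0.99 and -0.94 for the amine oxidase. Calls numbered 168 to 218 higher and 132 to 173 lower. The dismutase difference lay between 0.60 and 0.87. Dye effects lay between 0.17 and 0.47 for thioredoxin H, -0.50 and -0.30 for AB189165, -0.35 and -0.18 for AB087845, -0.048 and 0.32 for the peroxidase, and -0.049 and 0.0018 for the amine oxidase. The pairing of both tissues by array is part of every fit.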

Other observations

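Lipoxygenases oxygenate polyunsaturated fatty acids to hydroperoxides, and heme oxygenase opens the heme ring. A set of 4 probes for such enzymes was chosen after their values were seen, from the study's list of lower transcripts. AF098270 (lipoxygenase LoxN3) had log2 SAM/NM ratios from -1.51 on sector 3 to -0.72 on sector 2, with a mean of -1.13 ± 0.33 (SD, n = 4 arrays). U84198 (lipoxygenase Lox1) had a mean of -0.67 ± 0.36, and AF276230 (heme oxygenase 1) one of -0.67 ± 0.10. AJ784963 (alpha-dioxygenase) had -0.47 ± 0.17, a ratio of 0.721, and was not called lower. All 4 were below 0 on each array, as were 16.8% of all probes.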
